A study of Mus musculus with 6 samples.

Results

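Trib3, Asns, Chac1, Ddit4, Sesn2, Nupr1, Ppp1r15a, Atf3, Psat1 and Vldlr, known targets of the transcription factors ATF4 and CHOP, were compared between WT and S100a16KO+/- primary hepatocytes from mice on an alcohol diet. The 10 genes were taken from the deposited table by gene name, out of 25718 genes in all. The rule itself used no values, but the genes were chosen with earlier results of these data known. Each name matched 1 row, and all 10 genes passed the filter on low counts, so all were among the 15957 genes tested. Hepatocytes, the parenchymal cells of the liver, had been isolated by collagenase perfusion and PERCOLL separation from 3 WT and 3 S100a16KO+/- samples. Every mouse received alcohol: in the feeding protocol, male mice of 8 to 10 weeks had 5 days of control liquid diet, 10 days of a diet with 5% ethanol by volume and 1 gavage of 5 g/kg ethanol, and were killed 9 h later. The S100a16KO+/- mice carry a deletion of exons 2 to 3 of 1 S100a16 allele, made in the whole body with EIIa-Cre on a mainly C57BL/6 background, so the allele was altered in every cell type and from early development on. The sample labels call this genotype S100A16 knockdown. No mice on control diet were sequenced in this series, and the time the cells spent in culture before RNA extraction was not given in the sources used here.

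The estimated counts of a library added up to between 67658095 and 71807834. They are whole numbers with an excess of genes at 4, so that 1 fragment is worth about 4 counts. A count of 0 would allow 3 fragments, or 12 counts, and the lowest count of any of the 10 genes was 42. CPM below is the count scaled for library size (TMM), and FPKM is the authors' value scaled for transcript length and library size. S100a16 itself had 14.7, 15.0 and 16.2 CPM in WT and 6.25, 6.07 and 5.08 CPM in S100a16KO+/- libraries, which followed the labels. Albumin and the other hepatocyte markers summed to between 112060 and 123948 CPM in WT and between 108121 and 120034 CPM in S100a16KO+/- libraries. Of these 7 markers 2 were called, both lower. On the second principal component of all tested genes, WT replicate 1 and S100a16KO+/- replicate 2 stood apart from the other 4 libraries, with scores of 10.6 and 16.9 against -8.83 to -4.32. Leaving out either or both changed no call of the 10 genes in edgeR's test, and values that moved by more than 1.5 times are given with the gene.

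ATF4 is the effector of the integrated stress response. In it, the kinases PERK, GCN2, PKR and HRI phosphorylate the initiation factor eIF2α, general translation falls, and the Atf4 mRNA is translated more. ATF4 then binds C/EBP-ATF response elements and induces genes of amino acid supply, redox balance and feedback, among them the gene of CHOP (Ddit3), with which it shares many targets. In the liver the response is known from amino acid shortage, endoplasmic reticulum (ER) stress and mitochondrial stress, and alcohol feeding is among the conditions in which it has been studied.

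The target genes did not move as a block. In edgeR's quasi-likelihood test, 4 of the 10 fell in S100a16KO+/- hepatocytes (Trib3, Atf3, Ddit4 and Vldlr), 1 rose (Ppp1r15a) and 5 did not pass an adjusted p of 0.05 (Nupr1, Sesn2, Asns, Psat1 and Chac1). Of all tested genes, 11.2% fell and 11.6% rose by the same rule, 22.8% in all. Falls of at least 2-fold were called for 3 of the 10, against 1.24% of all tested genes, 3.33% in either direction. The same 3 were at least 2-fold lower at an unadjusted p under 0.05 in edgeR's test, limits that 4.52% of all tested genes passed. The study used these limits with DESeq2, so this share is not its own. Rises of at least 2-fold, called for 2.09% of all tested genes, were seen for 0 of the 10 by either criterion. The largest rise was 1.48-fold. The median log2 fold change of the 10 genes was -0.32, with a range from -1.62 to 0.57, beside a median of 0.0062 over all tested genes. For the same 5 called genes the libraries of the genotypes did not overlap in CPM, 4 of them lower and 1 higher, and for the other 5 they overlapped. Over all tested genes the libraries did not overlap for 37.9%, with 18.6% lower and 19.2% higher. Levels in these bulk libraries do not separate less RNA per cell from fewer cells that express a gene.

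**Figure D1:**
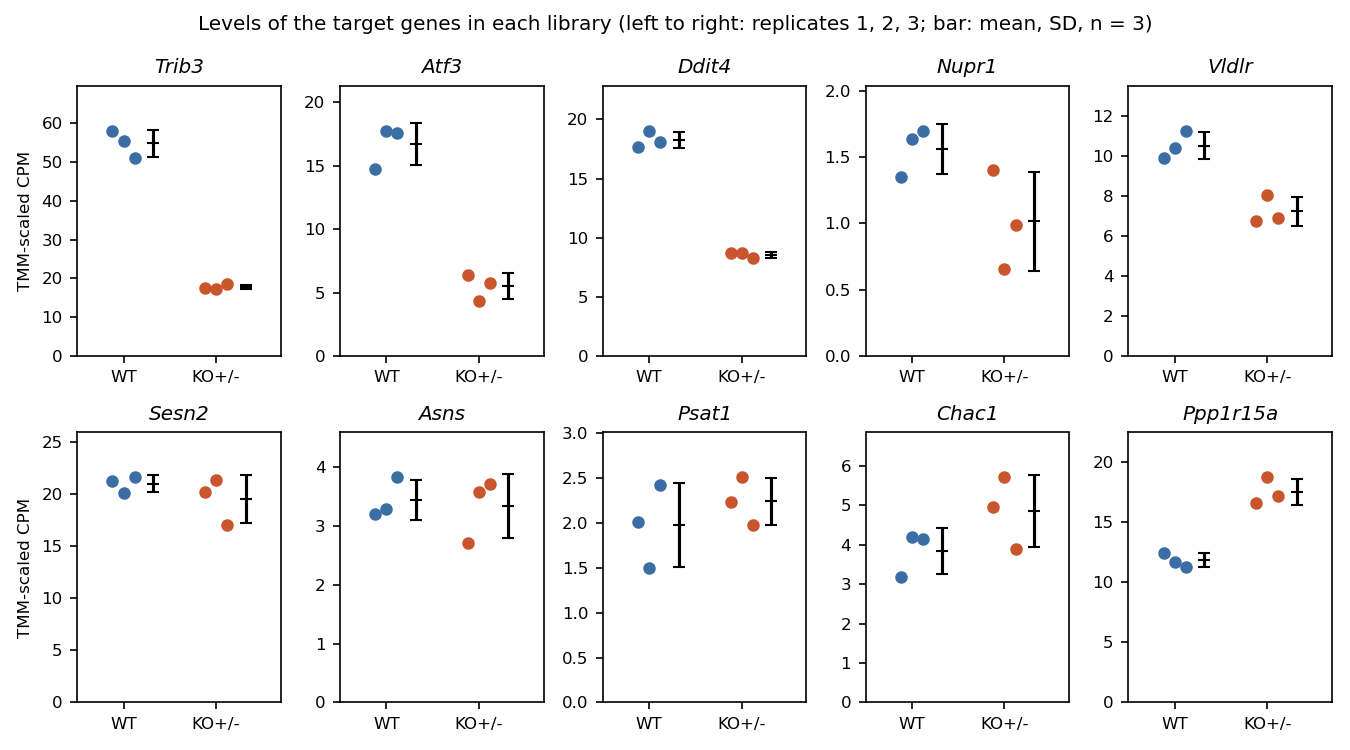
CPM after TMM scaling of each of the 10 genes in each library (points, replicates 1 to 3 from left to right), with the mean and SD of 3 libraries beside them and the axis of each panel starting at 0. The S100a16KO+/- points lie below all WT points for Trib3, Atf3, Ddit4 and Vldlr and above them for Ppp1r15a. For the other 5 genes the ranges of the genotypes overlap.

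The promoters were searched, without a test, to describe what the 10 genes share. Since the genes were listed as known targets of ATF4 and CHOP, the share with the response element is no independent result. RefSeq windows of GRCm38.p6, from 250 bases before to 50 bases after an annotated start, were found for all 10 genes, 12 windows in all since Psat1 and Vldlr have more than 1. The core TGATGNAA of the C/EBP-ATF response element occurred on either strand in 6 of the 12 windows, those of Trib3, Asns, Chac1, Nupr1, Atf3 and 1 of Vldlr, and in 3.97% of all 32851 windows. Its form TGATGCAA, which is contained in the first, occurred in 4 of the 12 windows and in 0.895% of all. On the gene's strand the core below reads TTGCATCA for Chac1, Nupr1, Atf3 and Vldlr, TTACATCA for Trib3 and TGATGAAA for Asns. Counted from the RefSeq starts, the core of Trib3 was the 1 core that lay after the start. By the gene positions of the deposited table it lay before Trib3, which starts at 152344032 on the minus strand. By those positions the cores of Asns, Nupr1, Atf3 and Vldlr lay inside their genes. Capitals mark the core, and each stretch is given 5′ to 3′ on the gene's strand.

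Atf3, chr1:191183396-191183483, minus strand, in an intron of the longer Atf3 transcripts: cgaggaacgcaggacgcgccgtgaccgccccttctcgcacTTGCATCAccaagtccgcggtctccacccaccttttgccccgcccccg

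Chac1, chr2:119351009-119351096, plus strand, upstream of the gene: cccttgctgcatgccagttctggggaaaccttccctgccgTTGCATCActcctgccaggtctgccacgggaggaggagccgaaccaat

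Nupr1, chr7:126625563-126625590, minus strand, inside an exon of a Nupr1 transcript: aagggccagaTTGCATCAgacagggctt

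Vldlr, chr19:27216810-27216837, plus strand, inside an exon of a Vldlr transcript: gcagcaatagTTGCATCAgcgctcctag

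Trib3, chr2:152344029-152344056, minus strand, with the core at bases 15 to 22 counted from the RefSeq start as 1: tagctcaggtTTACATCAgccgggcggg

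Asns, chr6:7693215-7693242, minus strand, inside an exon of an Asns transcript: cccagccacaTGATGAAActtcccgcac

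The core stood at the same place in the windows of Atf3 and Nupr1, 110 to 103 bases before the RefSeq start. Both genes had lower means in S100a16KO+/- hepatocytes, of which the fall of Atf3 passed the test. Chac1, which holds the same 8 letters 193 to 186 bases before its RefSeq start, had a higher mean that did not pass. The core thus occurred beside genes that fell (Trib3, Atf3, Vldlr) and genes without a call (Asns, Chac1, Nupr1), and was not in these windows of Ddit4, Sesn2, Psat1 and Ppp1r15a. Ppp1r15a was the 1 gene of the set whose window held the cyclic AMP response element TGACGTCA, found in 1.79% of all windows. Whether this element goes with the rise of the gene was not tested. The stretch up to the start of Ppp1r15a is shown with that element in capitals.

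Ppp1r15a, chr7:45526269-45526320, minus strand, upstream of the gene: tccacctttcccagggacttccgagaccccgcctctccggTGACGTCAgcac

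The ER stress response element, CCAAT and CCACG with 9 bases between, was in 0 of the 12 windows and in 0.119% of all, and the E-box CACGTG in the window of Nupr1 and in 7.15% of all. These are matches of letters in short windows, not measured binding.

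Trib3 and Ppp1r15a act in feedback on the response. Gene positions are those of the deposited table, on mm10 (GRCm38). TRIB3, a pseudokinase, binds ATF4 and CHOP and limits their activity, and also binds AKT. Trib3 (ENSMUSG00000032715, chromosome 2 from 152337422 to 152344032, minus strand) had 58.0, 55.3 and 51.0 CPM in the WT libraries. It had 17.5, 17.3 and 18.5 CPM in the S100a16KO+/- libraries. Every S100a16KO+/- library was thus far below every WT library, the closest values being 18.5 and 51.0 CPM. The mean fell from 54.8 ± 3.52 to 17.8 ± 0.632 CPM (SD, n = 3 each), to 32.5% of WT, or by -1.62 ± 0.07 (SE) on the log2 scale (adjusted p = 5.46e-10). This was the largest fall among the 10 genes and the 135th of the 15957 tested genes ranked from the largest fall.

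PPP1R15A (GADD34) brings protein phosphatase 1 to phosphorylated eIF2α and so restores translation. Ppp1r15a (ENSMUSG00000040435, chromosome 7 from 45522916 to 45526268, minus strand) had 12.5, 11.7 and 11.3 CPM in WT and 16.6, 18.7 and 17.2 CPM in S100a16KO+/- libraries. The 3 higher values did not reach down to any WT value, and the gene moved against Trib3. It rose 1.48-fold, or by 0.57 ± 0.09 (SE) on the log2 scale (adjusted p = 0.000322), under the 2-fold limit of the study. Tulp2 overlaps it by 717 bases on the other strand and had 9 to 29 counts per library, against 774 to 1239 for Ppp1r15a. Gm12981 likewise overlaps Sesn2, on the same strand, with 0 to 10 counts per library.

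Ppp1r15b, the constitutive partner gene for the same phosphatase, went the other way, from 101.6 ± 0.940 to 64.7 ± 2.89 CPM (SD, n = 3 each, log2 fold change -0.65, adjusted p = 8.75e-07). Per length, the FPKM ratio of Ppp1r15a to Ppp1r15b was 0.210 to 0.236 in WT and 0.486 to 0.579 in S100a16KO+/- libraries. Ppp1r15b remained the higher of the pair in every library. Ppp1cb, a catalytic subunit of the phosphatase, was at -0.023 on the log2 scale (95% interval -0.21 to 0.16).

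Atf3 and Nupr1 encode transcriptional regulators downstream of ATF4. ATF3 is a bZIP factor that forms dimers with other members of its family and mostly represses. Atf3 (ENSMUSG00000026628, chromosome 1 from 191170296 to 191218039, minus strand) had 14.8, 17.7 and 17.6 CPM in WT and 6.36, 4.34 and 5.79 CPM in S100a16KO+/- libraries. The genotypes did not overlap, and S100a16KO+/- replicate 2 was the lowest library. The change to 32.9% of the WT level was -1.60 ± 0.14 (SE) on the log2 scale (adjusted p = 1.02e-06), and -1.46 without that replicate. By size this fall was the 140th among all tested genes, next to that of Trib3.

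NUPR1 is a small chromatin-associated stress protein. Nupr1 (ENSMUSG00000030717, chromosome 7 from 126623249 to 126630861, minus strand) had 92, 115 and 116 counts in WT and 97, 42 and 71 in S100a16KO+/- libraries, the fewest of the set. In CPM, S100a16KO+/- replicate 1 lay among the WT libraries and replicate 2 far below them. The log2 fold change was -0.62 (95% interval -1.27 to 0.031, adjusted p = 0.169). Without S100a16KO+/- replicate 2 it was -0.39, and without S100a16KO+/- replicate 1 -0.93, so the size of this difference was set by single libraries.

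Ddit4 and Sesn2 both encode inhibitors of the growth kinase complex mTORC1. DDIT4 (REDD1) acts through the TSC complex and is also induced by glucocorticoids and low oxygen. Ddit4 (ENSMUSG00000020108, chromosome 10 from 59949669 to 59951834, minus strand) had 17.6, 19.0 and 18.1 CPM in WT and 8.72, 8.67 and 8.27 CPM in S100a16KO+/- libraries. Replicates lay close together in both genotypes, with coefficients of variation of 3.86% and 2.83%. In S100a16KO+/- hepatocytes it stood at 46.9% of WT, a change of -1.09 ± 0.09 (SE) on the log2 scale (adjusted p = 5.57e-07).

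SESN2 senses leucine and inhibits mTORC1 through GATOR2. Sesn2 (ENSMUSG00000028893, chromosome 4 from 132492032 to 132510501, minus strand) had 21.3, 20.05 and 21.6 CPM in WT and 20.2, 21.4 and 17.0 CPM in S100a16KO+/- libraries. The ranges overlapped, S100a16KO+/- replicate 3 being lowest. The log2 fold change was -0.10, with a 95% interval from -0.30 to 0.093 that excluded a fall of the size of that of Ddit4. Single libraries moved this small value, to -0.17 without S100a16KO+/- replicate 2 and to -0.014 without S100a16KO+/- replicate 3. The intervals of Ddit4 and Sesn2 did not meet, and the difference between the genes was not tested itself.

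Asns, Psat1 and Chac1 are the metabolic enzymes of the set. Asparagine synthetase and phosphoserine aminotransferase make asparagine and serine, and CHAC1 degrades glutathione. None of these 3 genes was called in edgeR's test, and at an unadjusted p under 0.05 none would have been. Asns (ENSMUSG00000029752, chromosome 6 from 7675169 to 7693254, minus strand) had 219, 232 and 262 counts in WT and 188, 230 and 268 in S100a16KO+/- libraries, with a log2 fold change of -0.045 (95% interval -0.43 to 0.33). With single libraries left out it ran from -0.13 to 0.082, and its sign changed without WT replicate 3 or S100a16KO+/- replicate 1. Psat1 (ENSMUSG00000024640, chromosome 19 from 15904678 to 15947337, minus strand) had 105 to 166 counts in WT and 142 to 161 in S100a16KO+/- libraries (0.18, 95% interval -0.31 to 0.67). That value was 0.012 without WT replicate 2, 0.35 without WT replicate 3 and 0.092 without S100a16KO+/- replicate 2. Chac1 (ENSMUSG00000027313, chromosome 2 from 119351229 to 119354381, plus strand) had 3.18, 4.21 and 4.15 CPM in WT and 4.95, 5.71 and 3.90 CPM in S100a16KO+/- libraries. Its log2 fold change was 0.34 (95% interval -0.046 to 0.72, adjusted p = 0.207), 0.22 without WT replicate 1, 0.20 without S100a16KO+/- replicate 2 and 0.079 without both. Its interval ran from a fall of 3.12% to a rise of 1.64-fold.

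Vldlr encodes the very low density lipoprotein receptor, which takes up triglyceride-rich lipoproteins, is low in normal hepatocytes and is induced by ATF4 under ER stress. Vldlr (ENSMUSG00000024924, chromosome 19 from 27216484 to 27254231, plus strand) had 9.90, 10.4 and 11.3 CPM in WT and 6.75, 8.08 and 6.91 CPM in S100a16KO+/- libraries. No S100a16KO+/- library reached the lowest WT value. The level was 68.8% of WT, a change of -0.54 ± 0.11 (SE) on the log2 scale (adjusted p = 0.00325). It lost its call in 1 setting, limma on log2(FPKM + 1) over all genes (-0.23, adjusted p = 0.0947), where the added 1 is above the gene's own level of 0.933 FPKM in WT.

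**Figure D2:**
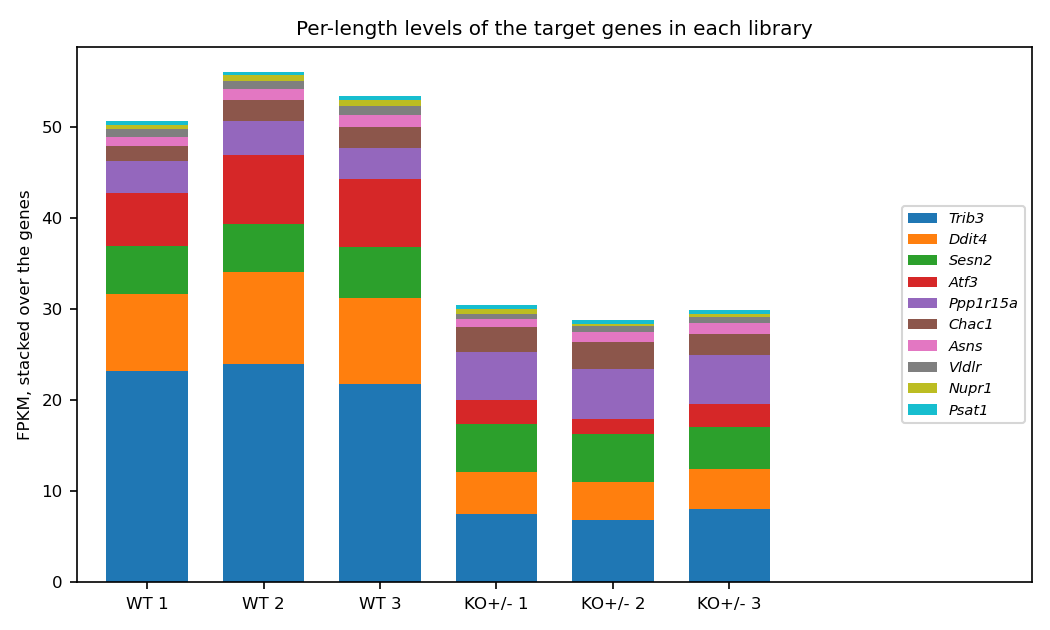
FPKM of the 10 genes stacked in each library, starting at 0, for WT and S100a16KO+/- (KO+/-) replicates 1 to 3. The stacks reach 50.6 to 55.9 FPKM in WT and 28.8 to 30.5 FPKM in S100a16KO+/- libraries, and most of the difference lies in the Trib3, Atf3 and Ddit4 segments.

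Compared per length, Trib3 had the highest level of the 10 genes in every library, at 23.0 ± 1.11 FPKM in WT and 7.50 ± 0.607 FPKM in S100a16KO+/- hepatocytes (SD, n = 3 each). It made up 40.8% to 45.8% of the summed FPKM of the set in WT and 23.9% to 27.1% in S100a16KO+/- libraries. Below it the order changed with genotype. In every WT library Ddit4 (9.29 ± 0.739 FPKM) came next, followed by Atf3 (6.95 ± 0.985 FPKM) and then Sesn2 (5.38 ± 0.231 FPKM) and Ppp1r15a (3.59 ± 0.0942 FPKM). In S100a16KO+/- libraries Ppp1r15a (5.34 ± 0.153 FPKM) and Sesn2 (5.02 ± 0.407 FPKM) exchanged the places below Trib3 between libraries and did not differ beyond their spread, Ddit4 (4.37 ± 0.175 FPKM) was next, and Chac1 (2.64 ± 0.382 FPKM) and Atf3 (2.30 ± 0.526 FPKM) overlapped. Asns, Vldlr, Nupr1 and Psat1 were the 4 lowest in every library, at means between 0.356 and 1.12 FPKM, with Asns above Vldlr throughout.

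Upstream of the targets, sensors and factors moved in both directions: of the 13 genes of this list, all tested, 4 rose (Eif2ak3, Ddit3, Cebpb and Atf4) and 5 fell (Ppp1r15b, Nfe2l2, Cebpg, Atf5 and Eif2ak2). Beside the counts of this list and the later ones stand the shares of all tested genes, 11.6% higher and 11.2% lower. Atf4, the transcription factor itself, had 81.8, 74.7 and 77.5 CPM in WT and 96.8, 102.9 and 98.8 CPM in S100a16KO+/- libraries. Ddit3, which encodes CHOP, had 10.5, 10.9 and 10.3 CPM in WT and 15.2, 15.9 and 17.0 CPM in S100a16KO+/- libraries. Both were higher in every S100a16KO+/- library than in any WT library, with log2 fold changes of 0.35 (adjusted p = 0.000366) and 0.60 (adjusted p = 0.000196). Their mRNA levels do not measure translation of Atf4 or the amount of either protein. By western blot of whole liver, the study reported lower ATF4 and less eIF2α phosphorylation in alcohol-fed S100a16KO+/- mice than in WT.

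Because Trib3 and Atf3 fell while Atf4 and Ddit3 rose, the ratios between them had to fall and are given for their size only. The FPKM ratio of Trib3 to Atf4 was 0.730 to 0.822 in WT and 0.186 to 0.207 in S100a16KO+/- libraries. That of Atf3 to Ddit3 was 1.12 to 1.36 in WT and 0.217 to 0.332 in S100a16KO+/- libraries, so that Atf3 was above Ddit3 in every WT library and below it in every S100a16KO+/- library.

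Eif2ak3, the gene of PERK, had the largest change of the list, from 8.29 ± 0.855 to 24.9 ± 1.89 CPM (SD, n = 3 each, log2 fold change 1.59, adjusted p = 3.77e-08). Among the other eIF2α kinases, Eif2ak2 (PKR) fell slightly (-0.32, adjusted p = 0.0471), a call that held in 5 of 18 alternative fits (adjusted p from 0.0416 to 0.194), and Eif2ak1 (HRI, 0.091) and Eif2ak4 (GCN2, 0.084) did not pass. Eif2s1, which encodes eIF2α, was at 0.050 on the log2 scale (95% interval -0.14 to 0.24). Of the bZIP partners of ATF4, Cebpb rose (0.49, adjusted p = 0.00166) and Cebpg fell (-0.43, adjusted p = 0.000557). Atf5, a related factor with the highest level of the list at a mean of 132.2 FPKM over the 6 libraries, fell (-0.36, adjusted p = 0.000175), as did Nfe2l2 (-0.53, adjusted p = 1.39e-05), the gene of NRF2.

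**Figure D3:**
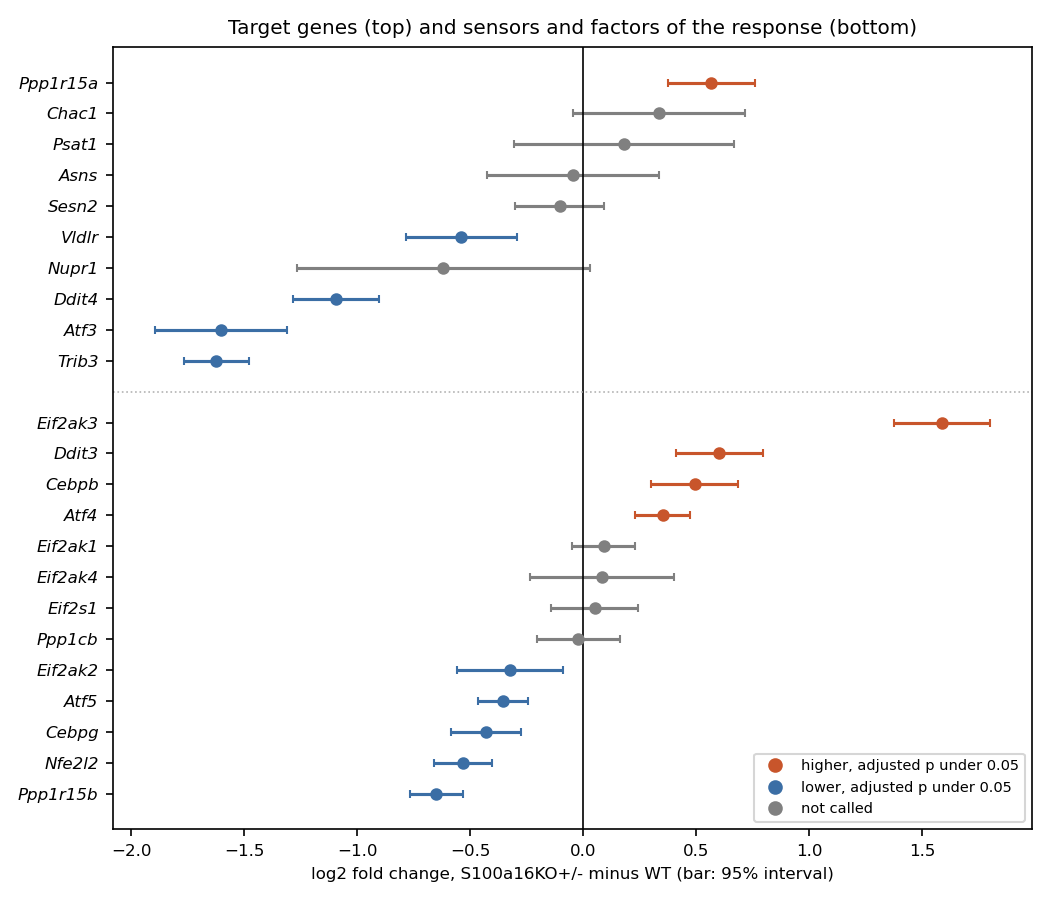
Log2 fold change of S100a16KO+/- against WT with its 95% interval from the edgeR fit, for the 10 target genes (top) and the 13 sensors and factors (bottom), coloured by the call at an adjusted p under 0.05. Trib3, Atf3 and Ddit4 lie left of -1, while Eif2ak3, Ddit3, Cebpb and Atf4 lie right of 0 with intervals that leave it out.

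Other genes known as ATF4 or CHOP targets were divided as well. The secreted targets held the largest falls: 3 of the 4 tested fell, with a median of -2.63. They were Inhbe, an activin subunit gene (-3.84, adjusted p = 3.85e-14), Fgf21, a fasting and stress hormone gene (-3.80, adjusted p = 9.01e-08), and Gdf15, a stress cytokine gene (-1.46, adjusted p = 2.66e-09). Vegfa, an angiogenic factor gene, was at -0.16 and did not pass (adjusted p = 0.0661).

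Of 11 tested genes in a mixed list of serine, proline and one-carbon synthesis and related transaminases, 3 rose and 1 fell, with a median of -0.023. Got1, cytosolic aspartate aminotransferase (1.74, adjusted p = 9.80e-12), Mthfd1l (0.78, adjusted p = 0.00849) and Cth, which makes cysteine from cystathionine (0.71, adjusted p = 8.58e-07), rose, and Gpt2 fell (-0.39, adjusted p = 8.72e-05). Phgdh, whose enzyme acts directly before PSAT1 in serine synthesis, had 0 to 11 counts per library and did not pass the filter on low counts. Psph, whose enzyme acts directly after PSAT1, was at -0.033, and Shmt2 and Mthfd2, of the one-carbon steps that use serine, were at -0.023 and -0.34, none of them called.

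Among 8 tested amino acid transporter genes 3 rose and 1 fell, with a median of 0.27. Slc38a2, a neutral amino acid carrier and the one with the highest level, rose (0.91, adjusted p = 1.47e-08), with Slc3a2 (0.40) and Slc6a9 (0.30), and Slc1a4 fell (-1.02, adjusted p = 0.00153). Slc7a11, the cystine carrier, did not pass the filter on low counts.

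Of 13 aminoacyl-tRNA synthetase and tRNA export genes, 2 rose and 3 fell, with a median of -0.14. Yars had the largest change (-0.62, adjusted p = 7.57e-05). Wars (0.46) and Sars (0.26) rose and Aars fell (-0.26), and Nars, which loads asparagine, the product of ASNS, onto its tRNA and had the highest level, was at 0.016 (adjusted p = 0.875).

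In the list of 28 other tested targets 6 rose and 6 fell, with a median of -0.055. Gadd45a and Gadd45b, growth arrest and DNA damage response genes, fell by 2.87 and 1.68 on the log2 scale (adjusted p = 4.30e-11 and 3.92e-08), and Stbd1, which binds glycogen, fell by 1.02 (adjusted p = 2.13e-08). Dnajb9, an ER co-chaperone gene, rose (1.77, adjusted p = 4.05e-11), as did Herpud1, an ER degradation gene (0.59, adjusted p = 4.25e-07). Dnajb9 and Herpud1 are also counted among the ER genes below. The other genes of this list that rose were Txnip (0.88), Bcl2l11 (0.60), Nfil3 (0.49) and Map1lc3b (0.28). The others that fell were Trib1 (-0.55), Gpt (-0.26) and Sqstm1 (-0.14).

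**Figure D4:**
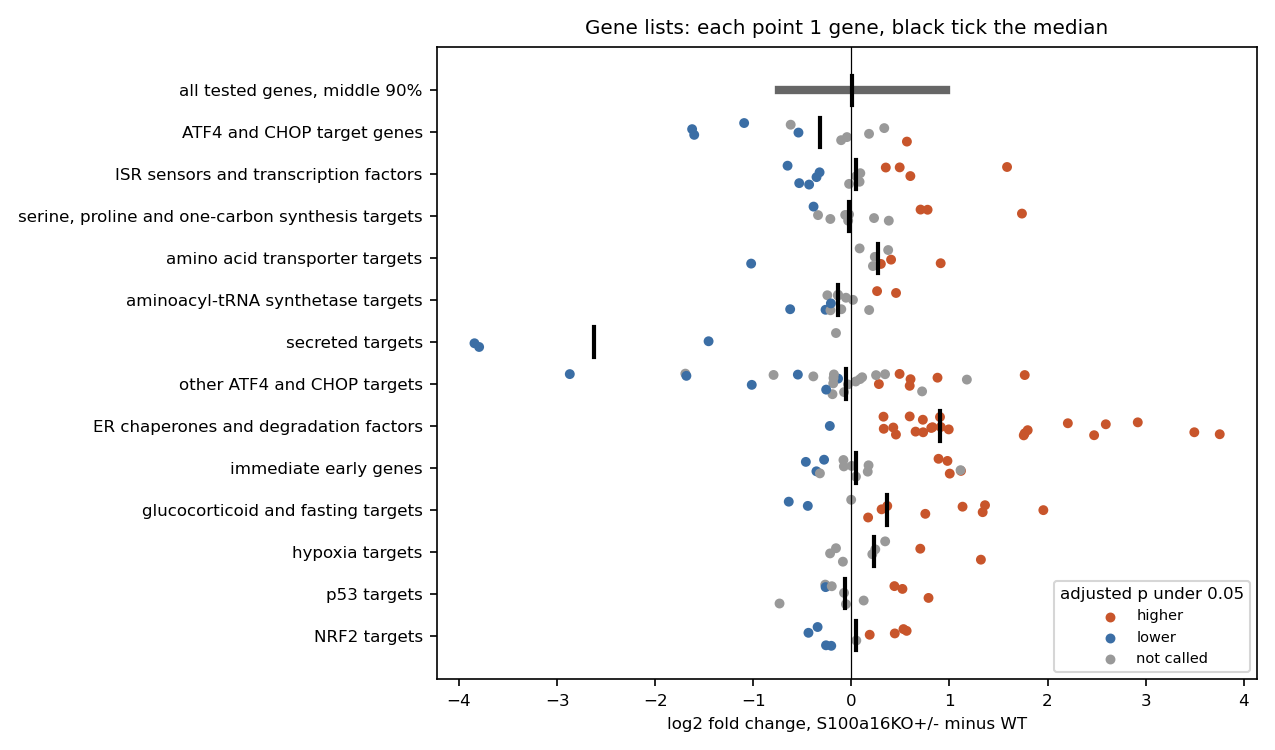
Log2 fold changes of every tested gene of the lists named on the axis (points, coloured by the call), with the median of the list as a black tick and, in the top row, the middle 90% of all tested genes as a bar. The secreted targets lie left and the ER chaperones right of the other lists, and the ATF4 and CHOP target genes reach from -1.62 to 0.57.

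Relatives of the 10 genes in their families were also read. Trib1, which directs C/EBPα to degradation, fell less than Trib3 (-0.55, adjusted p = 1.12e-05), and the FPKM ratio of Trib3 to Trib1 went from 2.28 to 2.74 in WT to 1.13 to 1.18 in S100a16KO+/- libraries. Chac2 fell (-0.50, adjusted p = 0.00100) while Chac1 had a higher mean, and the ratio of Chac1 to Chac2 was 0.156 to 0.222 in WT and 0.268 to 0.394 in S100a16KO+/- libraries. Sesn1 rose (0.52, adjusted p = 0.00306) beside the value of -0.10 for Sesn2. In all, 1 of 12 tested relatives rose and 3 fell, or 8.33% and 25%, beside 11.6% and 11.2% of all tested genes.

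Programmes that share some of the 10 genes gave the following counts in the same fit. Of 23 ER chaperone and degradation genes of the ATF6 and XBP1 branches, 22 rose and 1 fell, Xbp1 at -0.22 (adjusted p = 0.0137), with a median of 0.90. The largest rises were those of Derl3 (3.76), Creld2 (3.50), Manf (2.92) and Hyou1 (2.59). Hspa5, with the highest mean FPKM of the list over the 6 libraries, rose by 2.47. In WT alone Hspa5 was at 72.6 FPKM, below Hsp90b1 (156.6 FPKM) among others. The median of the 10 ATF4 and CHOP targets, -0.32, lay on the other side of 0. Of 15 immediate early genes, a class to which Atf3 and Ppp1r15a also belong, 4 rose and 3 fell, with a median of 0.047, and Fos (0.89, adjusted p = 5.41e-08) rose while Atf3 fell. Fosb (1.12), Ier3 and Btg2 (0.98) rose with Fos. Dusp1 (-0.46), Egr1 (-0.36) and Ier2, the gene of the list with the highest level (-0.28), fell like Atf3. Of 11 glucocorticoid and fasting targets, a class that shares inputs with Ddit4, 8 rose and 2 fell, with a median of 0.37. Pck1, the gluconeogenic enzyme gene with the highest level of that list (1.36, adjusted p = 2.39e-11), and Per1 (1.13, adjusted p = 1.09e-08) rose while Ddit4 fell, together with Ppargc1a (1.96) and Zbtb16 (1.34). Sgk1 (-0.44) and Mt2 (-0.64) fell like Ddit4, and Fkbp5 was at -0.0019 and not called. Among 8 tested hypoxia targets 2 passed, both higher: Ndrg1 (0.70, adjusted p = 0.00610) and Adm (1.32, adjusted p = 0.0231), whose call held in 10 of 15 alternative fits (adjusted p up to 0.185), while Bnip3, the hypoxia target with the highest level, was at -0.086. Among 10 p53 targets, a class that shares inputs with Sesn2, Trp53inp1 (0.79), Sesn1 and Bax (0.44) rose and Mdm2 fell (-0.26). The calls of Bax and Mdm2 held in 12 and 8 of 18 alternative fits, with adjusted p up to 0.270 and 0.313. Among 9 tested NRF2 targets 4 rose and 4 fell, with rises of Gsta1 (0.56), Srxn1 (0.53) and Me1 (0.44) and falls of Nqo1 (-0.44) and Gclc (-0.21).

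Markers of other liver cells moved with genotype as well. All 6 sinusoidal endothelial markers were called, 5 higher and 1 lower, and their summed level was 192.2 to 202.7 CPM in WT and 281.0 to 287.5 CPM in S100a16KO+/- libraries. Of 6 stellate cell markers 4 passed, all higher (38.8 to 42.2 against 68.7 to 76.7 CPM), and of 7 Kupffer cell markers 2 passed, both higher (96.5 to 117.6 against 117.0 to 125.9 CPM). The list of white and red blood cells summed to 143.2 to 174.7 CPM in WT and 21.9 to 23.8 CPM in S100a16KO+/- libraries, and the 2 genes called in it, both lower, were the haemoglobin genes Hba-a1 and Hbb-bs. Cholangiocyte markers summed to 2.66 to 3.31 CPM in WT and 1.88 to 2.44 CPM in S100a16KO+/- libraries. Of the 3 tested, 1 was called lower, and Cftr was at or under the limit of 12 counts throughout. The part of these cells in the changes of the 10 genes was not tested. Mitochondrial transcripts took 17.0% to 21.1% of the counts of a library, with the highest shares in WT replicate 1 and S100a16KO+/- replicate 2.

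**Figure D5:**
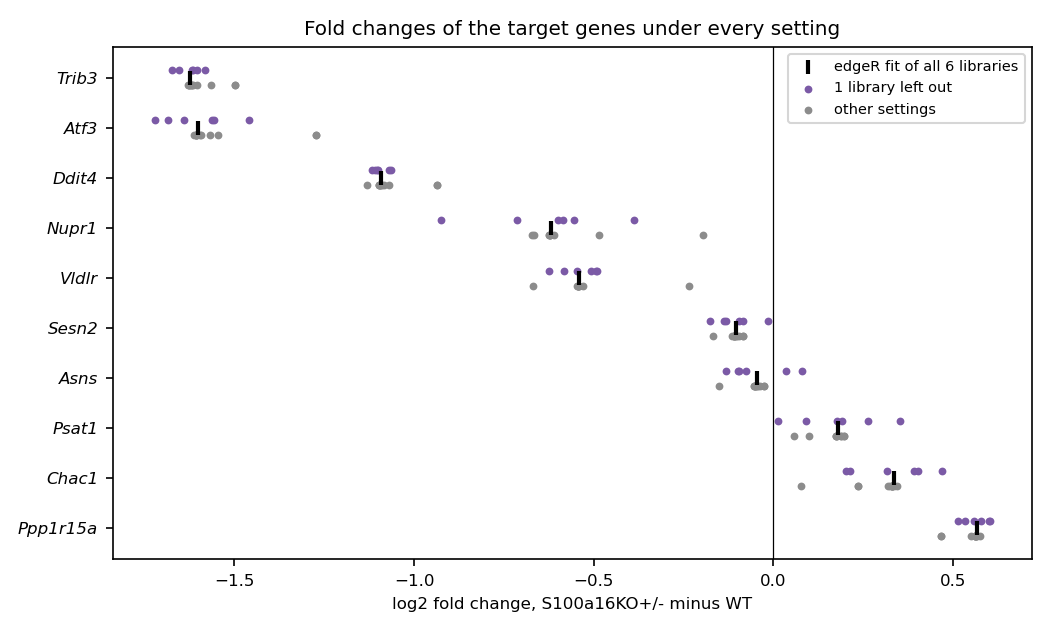
Log2 fold change of each of the 10 genes in the edgeR fit of all libraries (black bars), with 1 library left out (violet points) and under the other settings (grey points). The points of Trib3, Atf3, Ddit4, Vldlr and Ppp1r15a stay on 1 side of 0 throughout, and those of Nupr1 spread most when a library is left out, from -0.93 to -0.39.

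Over the 18 alternative fits, the log2 fold change of Trib3 stayed between -1.67 and -1.50, that of Atf3 between -1.72 and -1.27, that of Ddit4 between -1.13 and -0.94 and that of Ppp1r15a between 0.47 and 0.60. Their largest adjusted p over these fits were 0.000619, 0.0107, 0.00248 and 0.00828. With WT replicate 1 and S100a16KO+/- replicate 2 left out together, the same counts of 4 lower and 1 higher were obtained.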

How the data were processed

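RNA of 3 WT and 3 S100a16KO+/- primary hepatocyte samples was read as poly(A)-selected, strand-marked libraries with molecular identifiers. The authors deposited 1 table, with an estimated count (not scaled for library size) and an FPKM value (scaled by the authors for length and library size, and proportional to the count within a library) for each gene. The submitters' processing notes list cutadapt 1.9, HISAT2 2.0.4, UMI-tools, StringTie 1.3.4d, DESeq2, edgeR and mm10, without roles. The annotation and the strand setting of the counting are not given in the sources used here. All 10 genes have the same start and end in GENCODE M21. Samples were grouped by title. Nothing says that they came from separate mice beyond n = 3 per group, so p-values measure the spread between these samples.

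Counts were tested with edgeR 4.0.16 in R 4.3.3 (TMM, filterByExpr, robust quasi-likelihood test of genotype, two-sided, no covariate), with Benjamini-Hochberg adjustment over 15957 genes and calls at an adjusted p under 0.05. Intervals are 95% from the standard error of the fit and its degrees of freedom. Alternatives were DESeq2 1.42.0, limma 3.58.1 (voom, and trend on log2(FPKM + 1) or log2(FPKM + 0.1)), other scalings and filters, counts divided by 4, a replicate block and each library left out. Leaving out WT replicate 1 and S100a16KO+/- replicate 2 together was added after the data were seen. The main edgeR fit, its other scalings, the replicate block, DESeq2, voom and limma trend with 1 added were run on simulated data. The other filters, counts divided by 4, log2(FPKM + 0.1) and the fits with libraries left out were not. Named were the 10 genes, S100a16, every sensor and factor, and in each other list up to 4 called genes with the largest change and the gene with the highest FPKM. Vegfa, Shmt2, Psph, Mthfd2, Phgdh, Slc7a11, Xbp1, Hba-a1, Hbb-bs, Sgk1, Mt2, Fkbp5, Dusp1, Egr1 and Hsp90b1, and the FPKM ratios, were chosen after their values were seen. So were Txnip, Bcl2l11, Nfil3, Map1lc3b, Gpt and Sqstm1. These added genes were not followed over the alternative fits. The genes and lists were chosen with earlier results of these data known. Motifs were searched as letters on both strands. Replicate counts differed by more than sampling noise in every pair.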

Additional observations from a re-analysis of the deposited data

How the results depend on the processing

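The 10 genes gave 1 higher and 4 lower in every fit that tested all of them, except in limma on log2(FPKM + 1) without a filter, where Vldlr was lost (3 lower). With limma on FPKM the number of genes that differed, 3643 in edgeR, was 2228 on log2(FPKM + 1) and 2208 on log2(FPKM + 0.1) at a mean FPKM of at least 1, and 1370 without that filter. The median log2 fold change of the 10 genes was then -0.085, -0.10 and -0.14. The filter by itself left 7 of the 10 genes, without Vldlr, Nupr1 and Psat1. With a fold change of at least 2 required, 532 genes were called, or 721 at an unadjusted p, and 0 of the 10 genes were higher and 3 lower in either case. Beside the calls already given with their counts, Aars, Atf5, Cebpg, Gclc, Gpt2, Gsta1, Ier2, Ndrg1, Sars and Slc6a9 lost theirs in 1 alternative fit, the limma fit without a filter. Ier3 lost its call without S100a16KO+/- replicate 2, Mthfd1l in 2 fits (that limma fit and without S100a16KO+/- replicate 3), Nqo1 in 2 (that limma fit and without WT replicate 1 and S100a16KO+/- replicate 2) and Wars in 3 (that limma fit, without WT replicate 3 and without S100a16KO+/- replicate 3). With each library left out the median was between -0.34 and -0.28, and the number of genes that differed between 2734 and 3302. Genes near 0 changed sign with a library left out: Asns ranged from -0.13 to 0.082, Eif2ak4 from -0.0040 to 0.22, Eif2s1 from -0.0016 to 0.14 and Ppp1cb from -0.094 to 0.071, and Ppp1cb was 0.0039 with WT replicate 1 and S100a16KO+/- replicate 2 left out. No named gene changed sign under another scaling. With the replicate block 3082 genes differed and the calls of the 10 genes were the same in number. Same-numbered libraries did not deviate together over all tested genes (correlations -0.05, -0.02 and 0.05), and the numbers were not used as pairs in the main fit. With 3 samples per group this does not show that same-numbered samples were prepared apart. Depth limits Nupr1, Psat1, Asns and Chac1, with 42 to 367 counts per library.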
